A study of Homo sapiens with 3 samples.

Results

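The 36 genes described here make cholesterol, take it up, move and store it, export it, or control these steps through the transcription factor SREBP2. They were chosen by gene symbol, with earlier results of these data known. Every probe that the platform annotation names for one of them was used, older symbols included. Of the 36 genes, 34 had a named probe, with 49 probes among the 47323 on the Illumina beadchip, 39 of them above background on at least 1 array. FDFT1 and NR1H2 had none and were not analysed here. RNA came from PLC-PRF-5, an established human hepatoma line, after 24 h with the sorafenib probe, with sorafenib or with the solvent DMSO, on 1 array each. Sorafenib is a multi-target kinase inhibitor, and the sorafenib probe carries a photoaffinity group and an alkyne handle besides. The dose of each was 10 μM in the sample labels but 50 μM in their protocol text. A single line on a single array per agent limits what the groups can stand for, and both compounds were compared with the same DMSO array. A high or low DMSO value of a gene moves both differences the same way, so a shared direction is not independent evidence. No test between groups was possible, so differences are given by their size, without an error.

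Cells make cholesterol from acetyl-CoA through mevalonate, squalene and lanosterol, and hepatocytes are a main site of this synthesis. SREBP2 is held in the endoplasmic reticulum with its escort SCAP by the INSIG proteins when sterol is plentiful. When sterol is scarce, SCAP carries it to the Golgi, where the proteases of MBTPS1 and MBTPS2 release the part that enters the nucleus and switches on genes of synthesis and uptake. The oxysterol receptors called LXR act on the other side and switch on genes of cholesterol export.

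Intensities were corrected for background, brought to 1 distribution by quantile normalization and compared as log2 values, with an offset that makes the differences of dim probes smaller than they are. A probe counted as above background where its deposited detection p-value was under 0.01, which held for 32.8% of probes with the sorafenib probe, 32.7% with sorafenib and 32.3% with DMSO. A gene above background on at least 1 array was kept and represented by its brightest such probe, for 10396 genes in all, and 8750 genes passed on each of the 3 arrays. Of 10 hepatoma and epithelial markers, KRT8, KRT18, EPCAM and ALB were above background on every array, whereas AFP, TTR, TF, APOA1, APOB and FGB were above it on none. ALB was dim, with 49.6 with the sorafenib probe, 38.7 with sorafenib and 48.1 with DMSO. The lowest intensities that passed on these arrays were 34.0, 34.2 and 34.8. Of 10 markers of immune, endothelial, stromal and red blood cells, 9 had a probe, and their intensities summed to 215 with the sorafenib probe, 206 with sorafenib and 208 with DMSO. COL1A1 was above background on the sorafenib probe array, at 36.5 and so near the limit, and no other of these markers on any array. Each array was scaled to the same overall distribution of intensities, so a lower value is a lower share of the labelled RNA. A change in the number of cells or in the total RNA per cell would not show in these values.

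Of the 36 members, 29 were above background on all 3 arrays. MVK, ABCG1 and SREBF2 were above it on only 1 or 2 arrays, and STARD4 and SOAT1 on none. Among the 29, 9 were at least 1.5-fold lower with the sorafenib probe than with DMSO and 1 was at least 1.5-fold higher. With sorafenib, 6 of the 29 were lower by this measure and 1 was higher. At any size, 19 of the 29 were measured below DMSO with the sorafenib probe and 20 with sorafenib, beside 50.7% and 51.1% of the 8750 genes. Over all 8750 genes above background on the 3 arrays, 1.94% were at least 1.5-fold lower and 2.31% higher with the sorafenib probe, and 1.84% were lower and 2.06% higher with sorafenib. The members were not chosen blind to these data, so the counts beside these shares are a description only. The lower members were enzymes of synthesis, apart from INSIG1, and the member that was higher with both compounds was the lipoprotein receptor gene VLDLR. The median log2 difference of the 29 members was -0.17 with the sorafenib probe and -0.18 with sorafenib, beside medians of all 8750 genes that were within 0.01 of 0. The members spread widely, between -1.21 and 0.70 with the sorafenib probe and between -1.29 and 0.70 with sorafenib.

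The promoters of 7 members are shown, 5 of members that were lower, VLDLR as the one that was higher, and SREBF2 because it codes for SREBP2 itself. For IDI1 the start that holds both motifs was picked out of 3 listed. HMGCS1 and DHCR7 have 2 listed starts each, and in both the start not shown holds neither motif. Each line gives the 250 bases before a start site in RefSeq's GRCh38.p14, 5′ to 3′ on the gene's strand. Capitals mark CCAAT, the core of the site that the factor NF-Y binds next to SREBP2 in many sterol promoters, or its reverse complement ATTGG, and CACNCCAC, the core of a sterol regulatory element, or its reverse complement GTGGNGTG.
HMGCS1 (the first start listed), chr5:43313413-43313662, minus strand: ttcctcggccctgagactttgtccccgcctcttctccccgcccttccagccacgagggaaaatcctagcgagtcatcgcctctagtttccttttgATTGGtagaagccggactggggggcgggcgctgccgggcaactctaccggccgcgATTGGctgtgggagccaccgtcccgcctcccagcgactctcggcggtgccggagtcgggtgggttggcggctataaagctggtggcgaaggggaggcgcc
IDI1 (the second start listed), chr10:1048887-1049136, minus strand: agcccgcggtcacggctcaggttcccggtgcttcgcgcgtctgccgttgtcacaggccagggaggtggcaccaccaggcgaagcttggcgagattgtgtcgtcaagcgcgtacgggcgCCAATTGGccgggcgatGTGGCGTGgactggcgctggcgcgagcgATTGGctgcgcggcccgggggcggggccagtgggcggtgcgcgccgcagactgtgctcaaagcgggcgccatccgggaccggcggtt
MSMO1, chr4:165327419-165327668, plus strand: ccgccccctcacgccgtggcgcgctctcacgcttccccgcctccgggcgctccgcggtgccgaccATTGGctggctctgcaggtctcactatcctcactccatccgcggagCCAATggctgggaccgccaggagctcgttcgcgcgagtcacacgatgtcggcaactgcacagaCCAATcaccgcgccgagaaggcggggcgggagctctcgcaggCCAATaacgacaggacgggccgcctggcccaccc
DHCR7 (the first start listed), chr11:71448394-71448643, minus strand: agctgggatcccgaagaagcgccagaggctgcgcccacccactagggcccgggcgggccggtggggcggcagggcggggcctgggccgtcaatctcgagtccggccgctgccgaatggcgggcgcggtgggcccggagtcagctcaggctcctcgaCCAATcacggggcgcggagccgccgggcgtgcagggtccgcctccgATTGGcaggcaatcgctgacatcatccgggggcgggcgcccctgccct
INSIG1, chr7:155297628-155297877, plus strand: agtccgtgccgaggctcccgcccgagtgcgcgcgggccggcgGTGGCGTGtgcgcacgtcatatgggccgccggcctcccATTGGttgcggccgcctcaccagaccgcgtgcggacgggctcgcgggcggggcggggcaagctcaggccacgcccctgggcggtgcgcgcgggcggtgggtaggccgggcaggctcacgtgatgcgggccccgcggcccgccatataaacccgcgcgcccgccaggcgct
SREBF2, chr22:41832855-41833104, plus strand: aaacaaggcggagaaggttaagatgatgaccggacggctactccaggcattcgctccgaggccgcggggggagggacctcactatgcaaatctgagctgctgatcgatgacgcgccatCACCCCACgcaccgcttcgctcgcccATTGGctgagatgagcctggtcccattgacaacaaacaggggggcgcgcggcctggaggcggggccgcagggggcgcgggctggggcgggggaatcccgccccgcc
VLDLR, chr9:2621537-2621786, plus strand: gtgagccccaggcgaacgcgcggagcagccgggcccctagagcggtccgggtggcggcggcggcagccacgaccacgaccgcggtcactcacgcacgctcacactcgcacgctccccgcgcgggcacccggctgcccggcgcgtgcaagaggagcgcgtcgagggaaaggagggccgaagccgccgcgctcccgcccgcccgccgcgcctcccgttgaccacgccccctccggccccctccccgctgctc

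MSMO1 held 4 matches to CCAAT in this window, whose first bases lay 185, 139, 76 and 34 bases before the start. HMGCS1 held 2, at 155 and 100 bases, and DHCR7 held 2, at 94 and 48 bases. The sterol element core was found in INSIG1 at 208 bases, in SREBF2 at 132 bases and at the second listed start of IDI1 at 115 bases, where CCAAT was found 3 times and 2 of the matches overlap. INSIG1 and SREBF2 each held 1 CCAAT as well, and VLDLR held neither motif. Of the lower members not shown, AACS and CYP51A1 held neither motif, and LSS held CCAAT at 150 bases. CCAAT was also found in NSDHL, EBP and FDPS, which were less than 1.5-fold from DMSO with both compounds. The promoters shown are thus a selection, and a link between motif and direction was not tested. RefSeq's table listed promoters for 32 of the 36 members, and ACAT2, FDFT1, SQLE and ABCG1 were not in it. On both strands, CCAAT was found in 7 of 12 promoters (58.3%) of 8 of the members that were at least 1.5-fold lower with a compound, in 14 of 29 (48.3%) of the other kept members, and in 32% of 35116 promoters of the same length. The sterol element core was found in 2 of the 12, in 3 of the 29, and in 4.87% of all promoters. GGGCGG, a core that Sp1 binds, was found in 11 of the 12 (91.7%), in 23 of the 29 (79.3%) and in 42.6% of all promoters. The E box CACGTG was found in 1 of the 12, in 4 of the 29 and in 6.34% of all promoters. The 35116 promoters include those of genes that were not kept here, unlike the 12 and the 29, so these shares do not compare like sets. Start sites of 1 gene can overlap, so these promoters are not independent, and a match describes the letters and not binding.

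**Figure D1:**
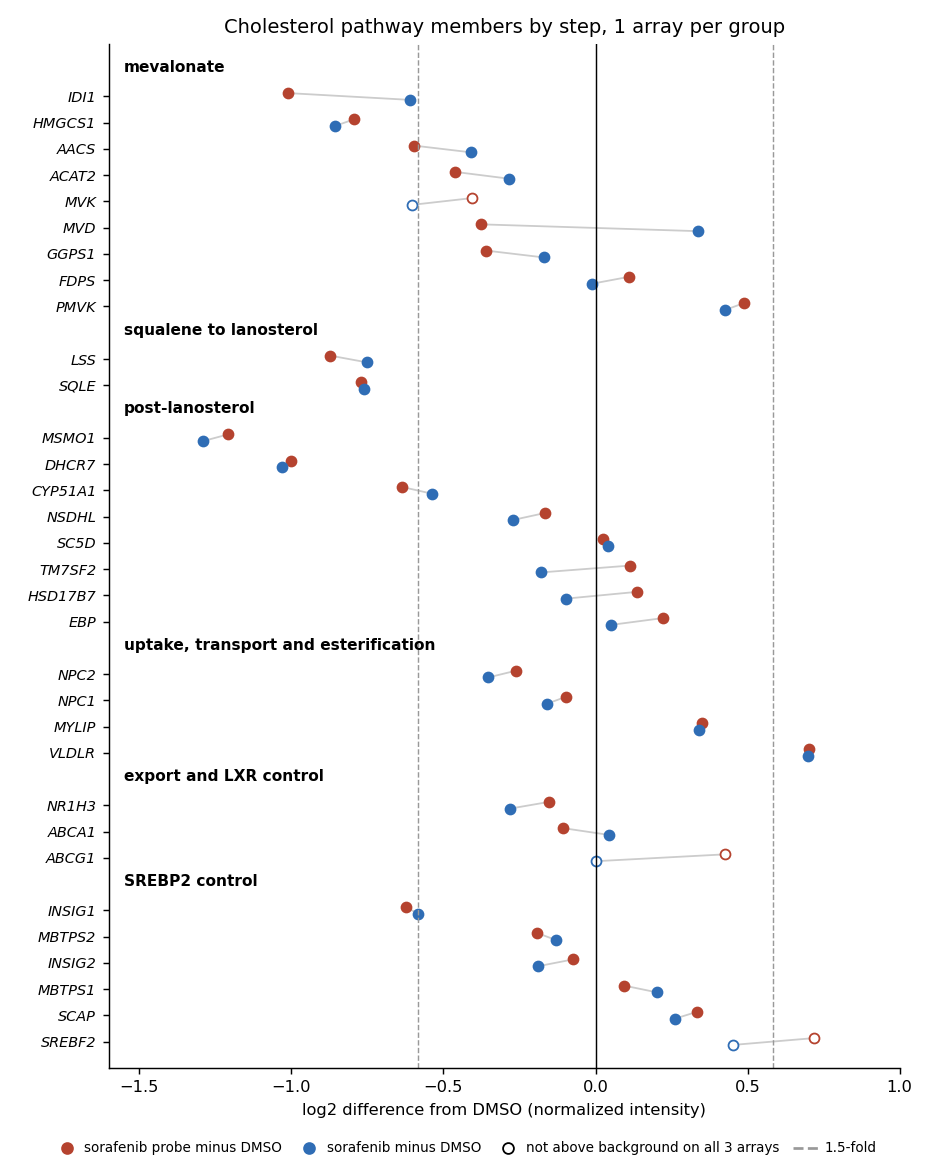
Log2 difference from DMSO (x axis) of the 32 kept members, grouped by step of the pathway (rows), with the sorafenib probe (red) and sorafenib (blue) drawn as 1 point each and open points for genes not above background on all 3 arrays. Dashed lines mark 1.5-fold. MSMO1, DHCR7, IDI1, LSS, HMGCS1 and SQLE lie beyond the lower line with both compounds and VLDLR beyond the upper one. Both differences of a gene use the same DMSO array.

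Early mevalonate enzymes were lower with both compounds. HMGCS1, the synthase that forms HMG-CoA, had a normalized intensity of 710 with the sorafenib probe, 679 with sorafenib and 1231 with DMSO. It was 1.73-fold lower with the sorafenib probe and 1.81-fold lower with sorafenib (log2 differences of -0.79 and -0.86), the rank 38 and 26 from the lowest of the 8750 genes. ACAT2, the cytosolic thiolase that supplies acetoacetyl-CoA, had 411 with the sorafenib probe, 465 with sorafenib and 567 with DMSO, log2 differences of -0.46 and -0.29. AACS, which makes the same metabolite from acetoacetate, had 51.9 with the sorafenib probe, 59.1 with sorafenib and 78.5 with DMSO. Its log2 differences were -0.60 with the sorafenib probe, just past 1.5-fold, and -0.41 with sorafenib.

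The later mevalonate enzymes did not all lie on 1 side of DMSO. IDI1, the isomerase that gives the second of the isoprenoid building blocks, had 86.8 with the sorafenib probe, 114.8 with sorafenib and 175 with DMSO. It was 2.02-fold lower with the sorafenib probe and 1.53-fold lower with sorafenib. The kinase gene PMVK lay the other way, with 210 with the sorafenib probe, 202 with sorafenib and 150.0 with DMSO, log2 differences of 0.49 and 0.43. IDI1 and PMVK, which act close together in the pathway, thus stood on opposite sides of DMSO with either compound. FDPS, which joins the building blocks to farnesyl diphosphate, had 189 with the sorafenib probe, 174 with sorafenib and 175 with DMSO, log2 differences of 0.11 and -0.01. GGPS1, which leads away from sterols to geranylgeranyl diphosphate, had log2 differences of -0.36 and -0.17. MVK, the mevalonate kinase gene, passed with DMSO only, having 31.3 with the sorafenib probe, 27.3 with sorafenib and 41.5 with DMSO, which bounds it at 1.22-fold lower or more with the sorafenib probe and 1.21-fold lower or more with sorafenib. Over the 8 members of the mevalonate steps that were above background on all 3 arrays, which leaves out MVK, 6 were measured below DMSO with each compound, and the median log2 differences were -0.42 with the sorafenib probe and -0.23 with sorafenib.

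Both measured enzymes between squalene and lanosterol were lower. SQLE, the squalene epoxidase that is a slow step of the pathway, had 472 with the sorafenib probe, 475 with sorafenib and 805 with DMSO, 1.71-fold and 1.69-fold lower. Its other probe gave 141 with the sorafenib probe, 129 with sorafenib and 235 with DMSO, log2 differences of -0.74 and -0.86. Both SQLE probes therefore lay below DMSO by a similar size. LSS, which closes the rings of lanosterol, had 89.2 with the sorafenib probe, 97.1 with sorafenib and 163 with DMSO, log2 differences of -0.87 and -0.75. The remaining 2 probes of LSS were above background on no array.

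The steps after lanosterol held members far from DMSO and members close to it. MSMO1, the methylsterol oxidase, had 166 with the sorafenib probe, 156 with sorafenib and 383 with DMSO by its brightest probe. It was 2.31-fold lower with the sorafenib probe and 2.45-fold lower with sorafenib, at rank 1 and 2 from the lowest of the 8750 genes. DHCR7, the reductase of the last step to cholesterol, had 156 with the sorafenib probe, 152 with sorafenib and 311.5 with DMSO, 2.002-fold and 2.044-fold lower, at rank 14 and 8. Its other probe gave 124 with the sorafenib probe, 116 with sorafenib and 249 with DMSO, and the DMSO array was again the highest. CYP51A1, which removes a methyl group from lanosterol, had 65 with the sorafenib probe, 69.7 with sorafenib and 101 with DMSO, log2 differences of -0.64 and -0.54. NSDHL, which acts with MSMO1 in removing methyl groups, was nearer to DMSO, with log2 differences of -0.17 and -0.27. HSD17B7, EBP, SC5D and the sterol reductase gene TM7SF2, which code for the other enzymes measured after lanosterol, ranged between 0.03 and 0.22 with the sorafenib probe and between -0.18 and 0.05 with sorafenib. Of these 8 genes, 4 were measured below DMSO with the sorafenib probe and 6 with sorafenib.

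The probes of MSMO1 did not all move one way. A dimmer probe gave 36.7 with the sorafenib probe, 35.02 with sorafenib and 65.1 with DMSO, log2 differences of -0.83 and -0.89. A further one gave 70.2 with the sorafenib probe, 72.0 with sorafenib and 58.1 with DMSO, log2 differences of 0.27 and 0.31, although the annotation assigns it to the same transcript as the brightest probe. With the mean of the 3 probes the differences were -0.59 and -0.62. Of 6 members with more than 1 kept probe, 4 had all kept probes on the same side of DMSO with the sorafenib probe and 4 with sorafenib. The exceptions were MSMO1 and MBTPS2, whose dimmer probe was above background on 1 array only. Probes of 1 gene read the same RNA sample and do not replicate the culture.

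**Figure D2:**
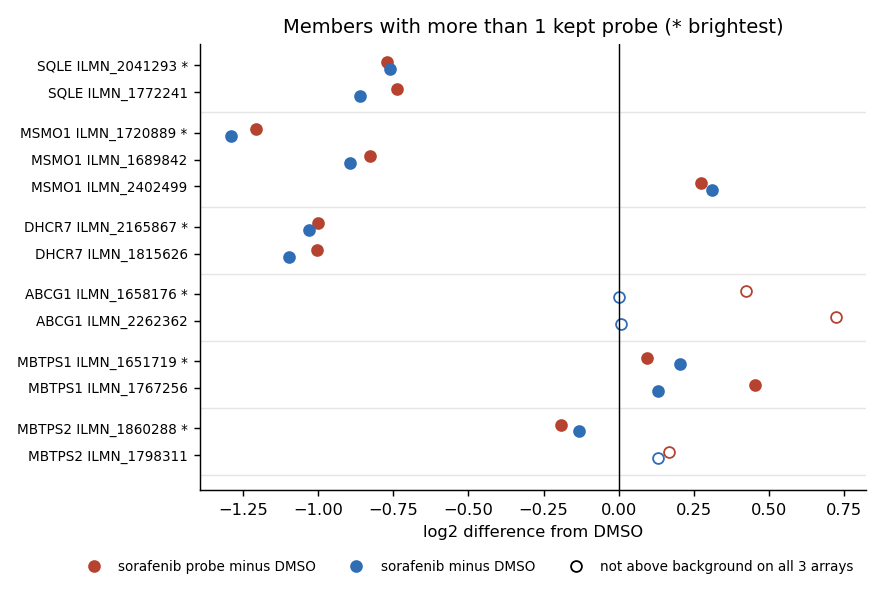
Log2 difference from DMSO (x axis) of each kept probe of the 6 members that had more than 1 (rows, brightest marked *), with the sorafenib probe in red, sorafenib in blue and open points where the probe was not above background on all 3 arrays. The probes of SQLE and of DHCR7 lie together below 0, whereas those of MSMO1 lie between -1.29 and 0.31.

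**Figure D3:**
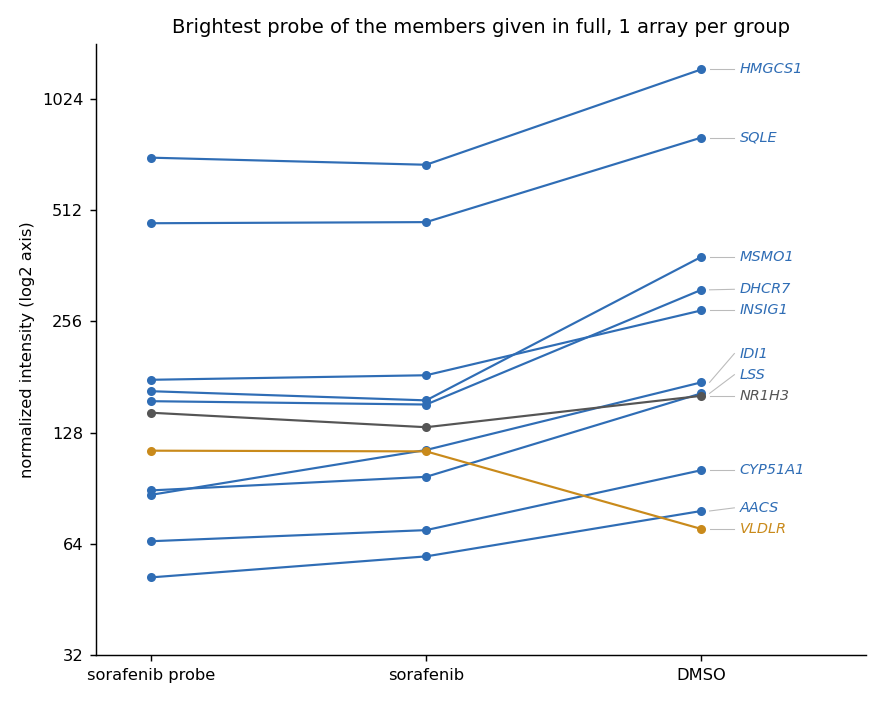
Normalized intensity (log2 axis) of the brightest probe of the 11 members given in full, on the arrays of the sorafenib probe, sorafenib and DMSO, with 1 array per group and a line joining the values of a gene. For 9 genes the DMSO array is the highest with both compounds at least 0.41 lower on the log2 scale, NR1H3 differs less, and VLDLR is lowest with DMSO (70.2 against 114 with each compound).

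Genes of uptake, transport and storage lay on both sides of DMSO. VLDLR, a receptor for triglyceride-rich lipoproteins, had 114 with the sorafenib probe, 114 with sorafenib and 70.2 with DMSO, 1.63-fold and 1.62-fold higher. Its other probe was above background on no array. MYLIP, the ubiquitin ligase that marks lipoprotein receptors for breakdown and is itself an LXR target, had 114.4 with the sorafenib probe, 113.5 with sorafenib and 89.7 with DMSO, log2 differences of 0.35 and 0.34. NPC2, which with NPC1 moves cholesterol out of lysosomes, had 2790 with the sorafenib probe, 2618 with sorafenib and 3343 with DMSO, log2 differences of -0.26 and -0.35. NPC1 had -0.10 and -0.16. Differences in the sterol carrier gene STARD4 and in SOAT1, which esterifies cholesterol, were not detectable, since neither was above background on any array.

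Of the exporter and LXR genes, ABCA1 and NR1H3 were less than 1.5-fold from DMSO, and ABCG1 was bounded on 1 side. ABCA1, which loads cholesterol onto apolipoproteins, had 114 with the sorafenib probe, 127 with sorafenib and 123 with DMSO, log2 differences of -0.11 and 0.04. NR1H3, which codes for one of the LXR receptors, had 145 with the sorafenib probe, 132 with sorafenib and 161 with DMSO, log2 differences of -0.15 and -0.28. ABCG1, which exports cholesterol to mature lipoprotein particles, was dim, with 46.6 with the sorafenib probe, 34.8 with sorafenib and 34.8 with DMSO, where it was not above background. Its bound was 1.34-fold higher with the sorafenib probe than with DMSO, nearly the same as the measured difference and resting on values near background. The detection p-value of ABCG1 was 0.01039 with DMSO, just over the limit, and 0.009091 with sorafenib at nearly the same intensity. A dimmer ABCG1 probe was above background with the sorafenib probe only, at 35.4, and the remaining 3 probes of the gene on no array.

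Among the genes that control SREBP2, INSIG1 was lower. INSIG1, itself a well-known SREBP2 target, had 178 with the sorafenib probe, 183 with sorafenib and 274 with DMSO. It was 1.54-fold lower with the sorafenib probe and 1.498-fold lower with sorafenib, just short of the 1.5-fold limit. INSIG2, its close relative, had log2 differences of -0.07 and -0.19. SCAP, the escort, had 647 with the sorafenib probe, 615 with sorafenib and 514 with DMSO, log2 differences of 0.33 and 0.26. MBTPS1 and MBTPS2 had 0.09 and -0.19 with the sorafenib probe, and 0.20 and -0.13 with sorafenib, by their brightest probes. SREBF2, which codes for SREBP2, was above background with the sorafenib probe only, at 35.5, and was dim with sorafenib (29.5) and with DMSO (21.6), so its difference from DMSO was bounded only at 1.02-fold or more. The arrays read transcript levels, and the cleavage and nuclear amount of SREBP2 were not measured here.

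**Figure D4:**
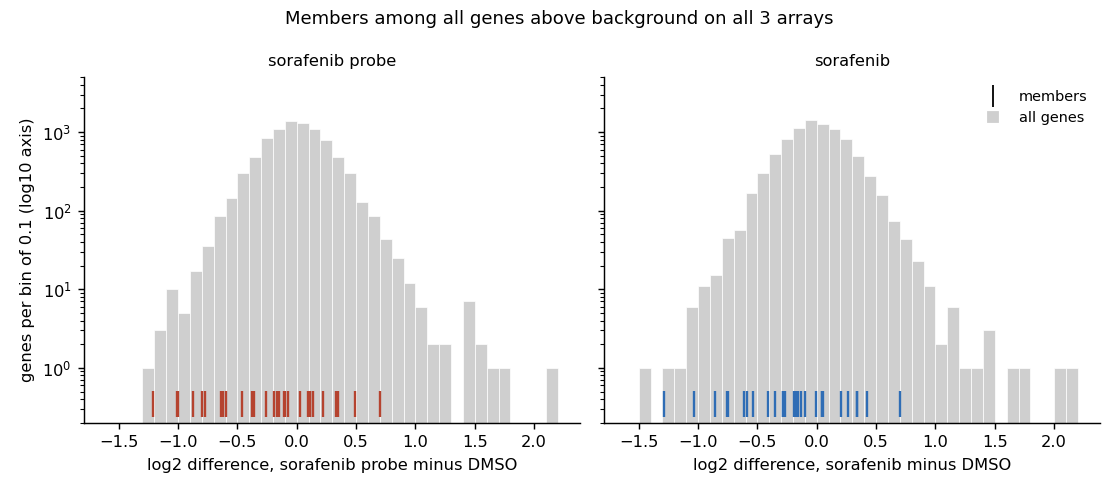
Number of genes per bin of 0.1 (log10 axis) by log2 difference from DMSO (x axis) for the 8750 genes above background on all 3 arrays, with the 29 members as coloured ticks, for the sorafenib probe (left) and sorafenib (right). The members reach -1.21 and -1.29 at the low end, where few genes lie, and end at 0.70 at the high end, below the highest genes (2.13 and 2.16).

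Another 22 genes of sterol and isoprenoid metabolism and of its control were set beside the members. Of these, 16 were kept, with medians of 0.01 with the sorafenib probe and 0.04 with sorafenib. With the sorafenib probe 8 were measured lower and 8 higher, and with sorafenib 7 lower and 9 higher. Only TMEM97 was at least 1.5-fold lower, and only with the sorafenib probe, and none was 1.5-fold higher with either compound. TMEM97, a sterol-regulated gene whose protein binds NPC1 and which was picked here after its value was seen, had 1396 with the sorafenib probe, 1427 with sorafenib and 2104 with DMSO. Its log2 differences were -0.59 and -0.56.

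Between the sorafenib probe and sorafenib the members differed little. These compounds, which differ by the photoaffinity group and the alkyne, were compared at the same labelled dose and time, as 1 pair of arrays, so no interval of the difference can be given. Of the 29 members, 1 was at least 1.5-fold lower with the sorafenib probe than with sorafenib and 0 were higher, beside 0.48% and 0.583% of the 8750 genes. The median log2 difference of the 29 members was 0.01. The member past 1.5-fold was MVD, the decarboxylase that makes isopentenyl diphosphate, with 34.6 with the sorafenib probe, 56.7 with sorafenib and 44.9 with DMSO. Its level was thus lower than DMSO with the sorafenib probe (-0.38) and higher with sorafenib (0.34), a log2 difference between the compounds of -0.71. MVD is dim, and at -0.7133 it lay just outside the middle 95% of differences between these arrays among the 3465 dimmest kept genes (-0.7089 to 0.7227), at rank 13 from the lowest of the 8750 genes. IDI1 was the next lowest of the 29 members, at -0.4033, also just outside the band of its own intensity range (-0.3964 to 0.3999), and TM7SF2 was the highest, at 0.29. For MSMO1, DHCR7, HMGCS1, SQLE, INSIG1 and VLDLR the compounds differed by less than 0.1 on the log2 scale.

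**Figure D5:**
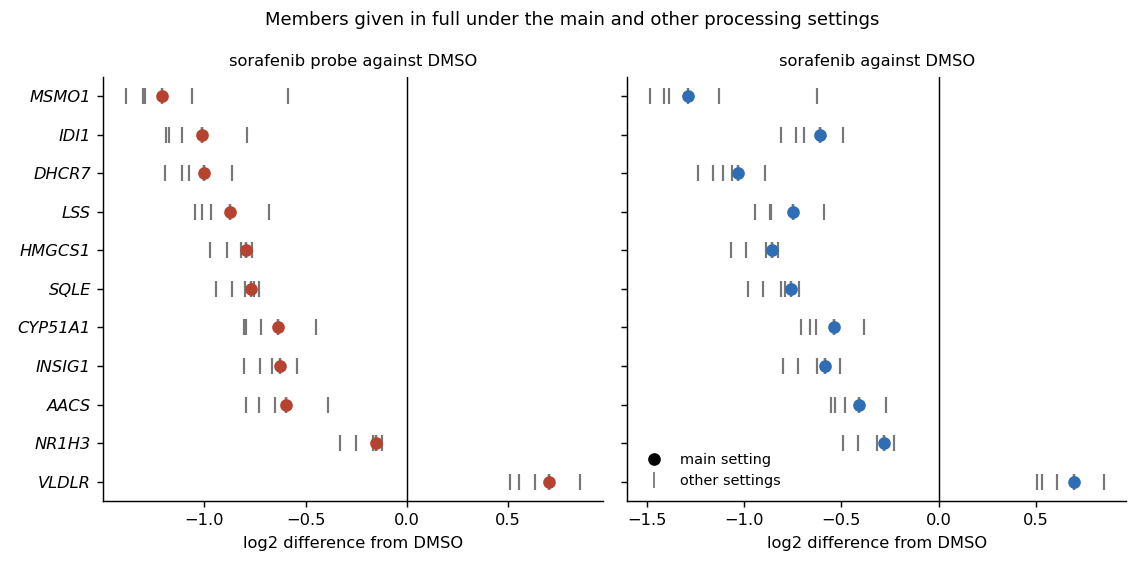
Log2 difference from DMSO (x axis) of the 11 members given in full (rows) with the sorafenib probe (left) and sorafenib (right), where the filled point is the value reported and each grey tick is 1 of 8 other ways of processing the same arrays. All 9 genes that were lower stay below 0 and VLDLR stays above 0 under each of the 8, where the ticks of the detection settings fall on the filled point. MSMO1 ranges between -1.39 and -0.59 with the sorafenib probe and between -1.49 and -0.62 with sorafenib.

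The levels of the leading members kept their side of DMSO in the other processing settings that were run. The detection settings keep the same probes for them and so repeat the reported values. With an offset of 50, which shrinks differences more, 6 members were at least 1.5-fold lower with the sorafenib probe and 5 with sorafenib, and 0 were higher, beside 0.529% and 0.548% of all kept genes lower. AACS (-0.39), CYP51A1 (-0.45) and INSIG1 (-0.54) were then short of 1.5-fold with the sorafenib probe. In the authors' own quantile normalized values, 10 members were at least 1.5-fold lower with the sorafenib probe and 8 with sorafenib, beside 4.72% and 4.61% of all kept genes in that setting. Without normalization between arrays the counts were 10 and 8, with 5.66% and 6.56% of all genes lower, 1.11% and 0.789% higher, and no member 1.5-fold higher. In that setting the median of all kept genes was -0.16 with the sorafenib probe and -0.19 with sorafenib, and the median of the members relative to it was -0.18 and -0.19.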

How the data were processed

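Biotinylated cRNA of PLC-PRF-5 cells was hybridised to an Illumina beadchip, 1 array per agent. One deposited intensity table carries a name that says no normalization was done. Its values have a floor of 1, and 98.2% of its sorted values above the floor were exactly equal on all 3 arrays, as quantile normalization leaves them, so it is called the authors' quantile normalized table here. Beside each intensity the authors deposited a detection p-value against the negative controls of the array. Their other deposited table, used here, holds background-subtracted intensities that were not yet normalized, with 27.1% to 30.2% of values below 0 and means of 164 (sorafenib probe), 159 (sorafenib) and 183 (DMSO). The scanner software was not given in the sources used here.

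Intensities were corrected with normexp from the detection p-values (offset 16), quantile normalized and converted to log2 in limma 3.58.1 (R 4.3.3). Counts and figures were made with pandas 2.3.3, numpy 2.4.6 and matplotlib 3.10.9 in Python 3.11.15. Of 47323 probes, 30113 had 1 gene symbol in the platform annotation, 8 had several and 17202 have no entry in it. Of those with 1 symbol, 99.9% matched RefSeq by Entrez identifier. A detection p-value under 0.01 on any array was required, which 17427 probes met. Where a gene was above background on 1 array of a pair, a bound was taken instead, with the dim side at its own value or, if higher, at the lowest intensity that passed on its array. A member was given in full where it was above background on all arrays and at least 1.5-fold from DMSO with either compound, or differed most within its step. The members, lists and limits were chosen with earlier results of these data known. Genes other than the 36 members that take part in the pathway are not all reported here. The normalization and the bounds were tested on simulated data. For the normalization only probes well above background were changed there, so that check does not cover changes in dim probes. The alternatives were the authors' quantile normalized table, an offset of 50, median scaling, no normalization between arrays, a detection limit of 0.05, detection on all 3 arrays, no filter, averaging a gene's kept probes, a stricter limit of 2-fold and a looser one (a log2 difference of 0.32). Precision is limited by having so few arrays.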

Additional observations from a re-analysis of the deposited data

How the results depend on the processing

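Of 204 values of 24 counts, shares and medians recomputed under the alternatives, 167 stayed within 0.1 on the log2 scale or within 1.5 times, 36 moved further and 1 changed sign having been at least 0.1 in size. The directions of the 9 lower members held under each of the 8 alternatives, with both compounds. The detection settings repeat the reported values of these members, as does averaging for a member without a further kept probe, so these could not differ. No paired analysis was possible because there is 1 array per group, and there was no replicate to leave out.

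With a limit of 2-fold, 3 members were lower with the sorafenib probe and 2 with sorafenib, beside 0.164% and 0.115% of all kept genes. At that limit 0 were higher, beside 0.25% and 0.164%. With the looser limit, 12 were lower with the sorafenib probe and 10 with sorafenib, beside 10.7% and 11.1% of all kept genes. Higher by that limit were 5 with the sorafenib probe and 4 with sorafenib, beside 10.7% of all kept genes with each compound. With an offset of 50, 6 were lower with the sorafenib probe and 5 with sorafenib, beside 0.529% and 0.548% of all kept genes. With that offset, or without normalization between arrays, 0 were higher with either compound. With the authors' table or no filter 2 were higher with the sorafenib probe, beside 4.74% and 2.18% of all genes in these settings. Between the compounds, 0 members were lower with an offset of 50 or at 2-fold, 2 were lower with the looser limit, and 1 was higher with the looser limit or with the authors' table.

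Medians over the kept members were -0.30 with sorafenib under median scaling, and -0.34 with the sorafenib probe and -0.38 with sorafenib without normalization. By step, over the kept members (MVK, ABCG1 and SREBF2 at their measured values), the medians with the sorafenib probe and then sorafenib were -0.41 and -0.29 for mevalonate, -0.071 and -0.22 after lanosterol, 0.13 and 0.09 for uptake, transport and esterification, -0.11 and 0.0018 for export, and 0.011 and 0.036 for the control of SREBP2. MVK, ABCG1 and SREBF2 were above background on only 1 or 2 arrays, and these medians depend on them. Without them the medians were -0.42 and -0.23 for mevalonate, -0.13 and -0.12 for export, and -0.073 and -0.13 for the control of SREBP2. Over the kept members, the mevalonate median was -0.64 with the sorafenib probe in the authors' table, and without normalization -0.50 with sorafenib. Without normalization the steps after lanosterol had -0.24 with the sorafenib probe and -0.41 with sorafenib, uptake, transport and esterification -0.042 and -0.10, export -0.28 and -0.16, and the control of SREBP2 -0.17 and -0.17. The sign changed for uptake and for the control of SREBP2 with both compounds, and for export with sorafenib. The sign also changed with sorafenib where uptake had a median of -0.027 under median scaling and -0.12 without a filter. With sorafenib the control of SREBP2 had -0.094 under median scaling and -0.13 with detection on all arrays, where export had -0.12, all with a changed sign, and with the mean of the kept probes it was 0.13 with the sorafenib probe. The cause of these shifts was not tested. Dim members (MVK, ABCG1, SREBF2, MVD) are limited by their signal over background.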
